A study of Homo sapiens with 9 samples.

Results

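Antigen processing for MHC class I was followed here through 7 genes, chosen by symbol from the 61806 genes of the deposited table. They are the 3 catalytic subunits of the immunoproteasome (PSMB8, PSMB9 and PSMB10), both subunits of its PA28 activator (PSME1 and PSME2), and both aminopeptidases that trim peptides in the endoplasmic reticulum (ERAP1 and ERAP2). All 7 had a row and passed the filter on low counts that left 13562 genes for testing. The cells were 786-O, an established human line from a clear cell renal carcinoma, described as epithelial cells of kidney, in which polyadenylated RNA was sequenced. The groups were TRIM28 knockdown (genotype TRIM28 knockdown, TRIM28 siRNA), PARP1 knockdown (genotype PARP1 knockdown, PARP1 siRNA) and control (genotype wild type, negative control siRNA), with 3 libraries each and the same batch label throughout. Another field names shRNA in place of siRNA, and the series text describes parental cells, so neither the kind of reagent nor a transfection of the controls is certain. All groups share 1 cell line, and no label gives the libraries of a group as separate cultures. The p-values thus reflect the spread among these libraries alone, which may be technical.

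The proteasome cuts proteins into peptides in the cytosol and nucleus. In the immunoproteasome, PSMB8, PSMB9 and PSMB10 take the places of the constitutive catalytic subunits PSMB5, PSMB6 and PSMB7, and the PA28 ring can cap the core and favour the release of peptides. The TAP transporter carries peptides into the endoplasmic reticulum, where ERAP1 and ERAP2 shorten them at the amino end before they are loaded on MHC class I. Interferons are known inducers of both the subunits and the trimming enzymes, acting in part through IRF1 and IRF9. TRIM28 is a corepressor brought to chromatin by KRAB zinc finger proteins, and PARP1 is an enzyme that attaches poly(ADP-ribose) to proteins near DNA breaks.

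The promoters are shown because interferon-responsive genes often carry an interferon-stimulated response element (ISRE). RefSeq (GRCh38.p14) gave 10 windows for the 7 genes, each running from 250 bases before an annotated start to 50 bases after it. Both strands were searched for the ISRE core, which is GAAA, any 2 bases and GAAA, and for the gamma-activated sequence (GAS) core, which is TTC, any 3 bases and GAA. The ISRE core stood in 6 of the 10 windows, 1 for each of 6 genes, against 1255 of all 35116 RefSeq windows (3.57%) and 402 of the 10118 tested genes with a window (3.97%). These 6 stretches of 100 bases follow, read 5′ to 3′ on the strand of the gene, with the ISRE core in capitals (a core on the opposite strand reads as its reverse complement).
PSMB8, chr6:32843998-32844097, minus strand: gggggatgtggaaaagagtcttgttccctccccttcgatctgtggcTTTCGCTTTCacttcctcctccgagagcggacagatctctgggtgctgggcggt
PSMB10, chr16:67936817-67936916, minus strand: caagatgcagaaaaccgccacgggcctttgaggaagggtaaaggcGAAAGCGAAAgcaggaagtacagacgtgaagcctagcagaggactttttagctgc
PSME1, chr14:24136144-24136243, plus strand: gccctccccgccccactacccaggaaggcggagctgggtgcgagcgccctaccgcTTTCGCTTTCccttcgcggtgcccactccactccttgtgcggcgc
PSME2, chr14:24146584-24146683, minus strand: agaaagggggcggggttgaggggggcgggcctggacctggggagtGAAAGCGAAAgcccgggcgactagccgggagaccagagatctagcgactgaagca
ERAP1, chr5:96807896-96807995, minus strand: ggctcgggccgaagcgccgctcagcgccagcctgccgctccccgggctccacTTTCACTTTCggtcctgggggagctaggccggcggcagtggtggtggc
ERAP2, chr5:96876425-96876524, plus strand: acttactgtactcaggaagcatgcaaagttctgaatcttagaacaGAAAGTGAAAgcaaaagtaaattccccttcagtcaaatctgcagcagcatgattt
PSMB8, PSMB10, PSME1 and PSME2 held GAAAGCGAAA, and both trimming enzyme genes held GAAAGTGAAA. The core lay from position -4 to 5 relative to the PSMB8 start at 32844047, counted as position 0, from -21 to -12 for PSMB10, from 5 to 14 for PSME1 and from -28 to -19 for PSME2. It lay from 2 to 11 for the ERAP1 start at 96807945 and from -30 to -21 for the ERAP2 start at 96876500. The window of PSMB9 and the other windows of PSMB8, ERAP1 and ERAP2 lacked these letters. The GAS core was found for PSMB8 alone among the 7 genes, as TTCTCGGAA from -65 to -57 and without overlap with the ISRE core, against 7.66% of all windows. A match of letters is a description of the sequence and not evidence of a bound factor.

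Total counts ran from 11963110 to 20224374 per library. TRIM28 stood at 15.1% of the control mean in TRIM28 knockdown, and PARP1 at 3.11% of it in PARP1 knockdown and 52.9% in TRIM28 knockdown. Of 12 renal and epithelial marker genes all were measured, with 2 higher and 6 lower in each knockdown against control. Over all tested genes, 10.3% were higher and 17.5% lower in TRIM28 knockdown, and 27.1% and 32.2% in PARP1 knockdown. KRT18, a keratin of simple epithelia, was higher (log2 fold change 0.56 in TRIM28 knockdown and 0.93 in PARP1 knockdown), and CDH2, the N-cadherin that renal tubule cells carry, was lower (-1.06 and -1.75). Summed, those markers held 7470 to 7940 CPM (CPM being reads scaled to a common library size, with TMM factors) in TRIM28 knockdown, 5560 to 7480 in PARP1 knockdown and 6930 to 7370 in control. The 10 immune cell markers together held at most 3.18, 1.98 and 2.21 CPM in those groups. PTPRC, CD3E and MS4A1 had no read in any library, and CD68, the only immune marker tested, had log2 fold changes of 0.38 ± 0.38 (adjusted p = 0.484) and 0.05 (adjusted p = 0.918).

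The 3 catalytic subunits of the immunoproteasome rose in both knockdowns, to 142% to 147% of the control mean in TRIM28 knockdown and 198% to 239% in PARP1 knockdown. PSMB8 (ENSG00000204264, chromosome 6, 32840717 to 32844679, minus strand, GRCh38) encodes the chymotrypsin-like subunit β5i, also called LMP7. PSMB8 held 211, 210 and 193 CPM in the TRIM28 knockdown libraries, 224, 298 and 317 in the PARP1 knockdown libraries, and 121, 140 and 156 in the control libraries. Every library of either knockdown lay above every control library. Its log2 fold change over control was 0.56 ± 0.14 (SE, n = 3 per group) in TRIM28 knockdown and 1.01 ± 0.14 in PARP1 knockdown, with adjusted p of 0.00541 and 1.63e-06 (edgeR, quasi-likelihood, adjusted after Benjamini-Hochberg over all tested genes). Each adjusted p below comes from the same fit, and a gene is called higher or lower, or said to rise or fall, where it is under 0.05. In a bulk library, fewer cells of a kind and less RNA per cell cannot be told apart.

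PSMB9 (ENSG00000240065, chromosome 6, 32844136 to 32859851, plus strand) encodes β1i, also called LMP2. PSMB9 held 90.8, 90.2 and 78.4 CPM in TRIM28 knockdown, 101, 155 and 165 in PARP1 knockdown, and 48.9, 57.5 and 69.6 in control. PARP1 knockdown replicate 1 lay well below the other two of its group, yet still above all TRIM28 knockdown and control libraries. Of the 7 genes PSMB9 rose the most in PARP1 knockdown, by a log2 value of 1.26 ± 0.16 (adjusted p = 5.03e-07), and it rose by 0.56 ± 0.16 in TRIM28 knockdown (adjusted p = 0.0121). PSMB10 (ENSG00000205220, chromosome 16, 67934506 to 67936864, minus strand) encodes β2i, also called MECL-1. PSMB10 held 43.5, 45.0 and 42.0 CPM in TRIM28 knockdown, 49.5, 70.8 and 60.9 in PARP1 knockdown, and 28.9, 30.0 and 32.9 in control. The 3 groups did not overlap, and the log2 fold changes were 0.51 ± 0.14 in TRIM28 knockdown (adjusted p = 0.0103) and 0.98 ± 0.14 in PARP1 knockdown (adjusted p = 2.51e-06).

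The PA28 subunits rose as well, by less. PSME1 (ENSG00000092010, chromosome 14, 24136163 to 24138967, plus strand), which encodes PA28α, held 353, 340 and 329 CPM in TRIM28 knockdown, 355, 411 and 413 in PARP1 knockdown, and 233, 259 and 298 in control. The lowest PARP1 knockdown library lay only just above the highest TRIM28 knockdown library. The log2 fold changes of PSME1 over control were 0.37 ± 0.13 (adjusted p = 0.0339) in TRIM28 knockdown and 0.58 ± 0.13 (adjusted p = 0.000463) in PARP1 knockdown. PSME2 (ENSG00000100911, chromosome 14, 24143362 to 24147570, minus strand), which encodes PA28β, held 378, 373 and 339 CPM in TRIM28 knockdown, 369, 495 and 465 in PARP1 knockdown, and 252, 269 and 298 in control. Both knockdowns lay wholly above control, while their own libraries overlapped. The log2 fold changes of PSME2 were 0.41 ± 0.13 (adjusted p = 0.0235) in TRIM28 knockdown and 0.70 ± 0.13 (adjusted p = 8.26e-05) in PARP1 knockdown.

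The trimming enzymes went the other way. ERAP1 (ENSG00000164307, chromosome 5, 96760810 to 96808100, minus strand), an aminopeptidase that prefers peptides longer than those MHC class I holds, fell to 37.4% of the control mean in TRIM28 knockdown and to 16.9% in PARP1 knockdown. ERAP1 held 5.11, 3.19 and 4.34 CPM in TRIM28 knockdown, 1.92, 2.71 and 1.09 in PARP1 knockdown, and 12.9, 12.1 and 8.80 in control. The 3 groups were fully separated, with control replicate 3 the lowest of its group. The log2 fold changes of ERAP1 were -1.41 ± 0.25 (adjusted p = 0.000215) and -2.54 ± 0.28 (adjusted p = 5.01e-08). These values rest on few reads, 82, 40 and 72 in TRIM28 knockdown, 29, 32 and 11 in PARP1 knockdown, and 268, 249 and 191 in control, so the level in a single PARP1 knockdown library is loosely set.

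ERAP2 (ENSG00000164308, chromosome 5, 96875986 to 96919703, plus strand), the related aminopeptidase that can act together with ERAP1, fell to 62.2% of the control mean in TRIM28 knockdown and to 35.7% in PARP1 knockdown. ERAP2 held 12.1, 10.7 and 9.58 CPM in TRIM28 knockdown, 4.50, 7.44 and 6.63 in PARP1 knockdown, and 20.1, 19.3 and 12.6 in control. Control replicate 3 lay close to TRIM28 knockdown replicate 1, so the gap between those groups was narrow. The log2 fold changes of ERAP2 were -0.68 ± 0.20 (adjusted p = 0.0146) and -1.50 ± 0.22 (adjusted p = 2.23e-06).

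**Figure D1:**
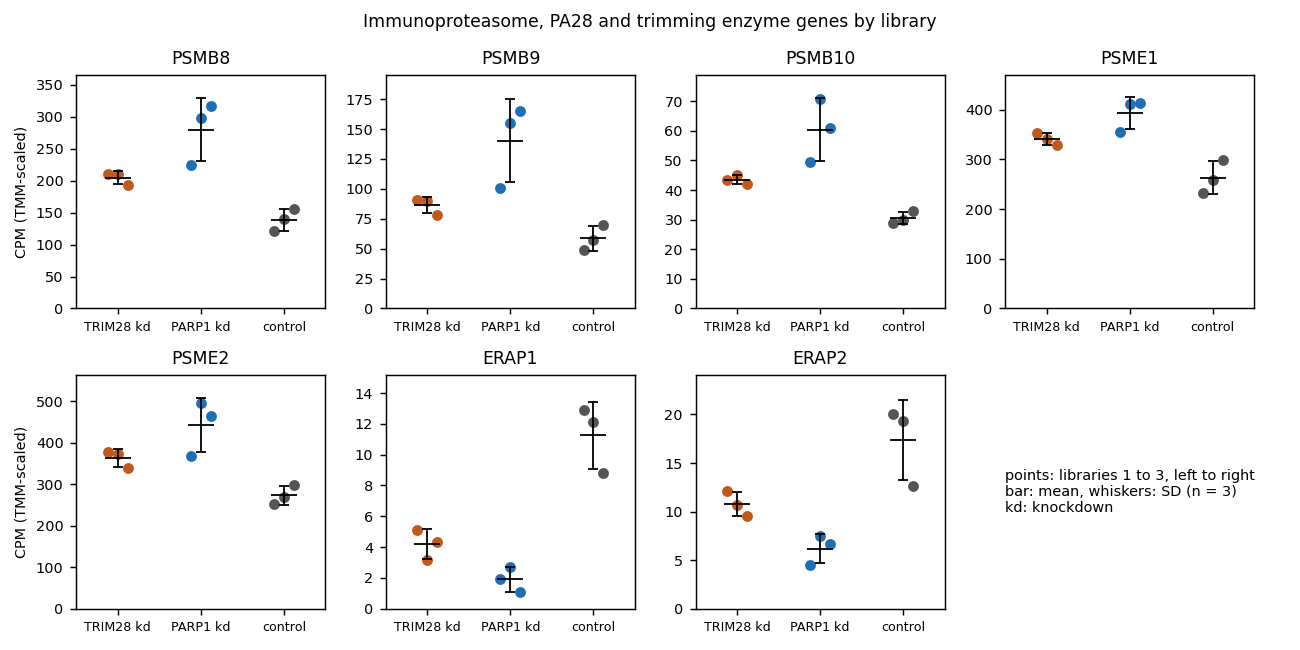
Level of each of the 7 genes in CPM (vertical axis, from 0) in the 3 libraries of TRIM28 knockdown, PARP1 knockdown and control; points are libraries, bars means and whiskers SD (n = 3). The 5 subunit genes sit higher in both knockdowns than in control, while ERAP1 and ERAP2 sit lower.

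Per length, the subunits were abundant transcripts and the trimming enzymes scarce ones. In FPKM (reads scaled by exon length and library total), PSME1 averaged 192 ± 8.01 in TRIM28 knockdown, 196 ± 3.38 in PARP1 knockdown and 165 ± 14.3 in control (SD, n = 3 each), more than 97.9% of the tested genes in control. Below it in control came PSME2 at 85.1 ± 4.19 FPKM, PSMB8 at 44.6 ± 4.12, PSMB10 at 21.0 ± 0.645 and PSMB9 at 19.6 ± 2.75. The last 2 lay within their spread of each other. ERAP2 averaged 1.55 ± 0.186 FPKM in TRIM28 knockdown, 0.787 ± 0.146 in PARP1 knockdown and 2.80 ± 0.750 in control. ERAP1 averaged 0.53 ± 0.131, 0.213 ± 0.0862 and 1.59 ± 0.357 FPKM in those groups. In PARP1 knockdown, PSMB9 at 37.0 ± 6.74 FPKM stood ahead of PSMB10 at 32.9 ± 4.21, again within the spread, and only 14.2% of tested genes lay below ERAP1, against 40.4% in control.

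Set against control, TRIM28 knockdown had 5 of 5 subunit genes higher and 2 of 2 trimming enzymes lower, where 10.3% of all tested genes were higher and 17.5% lower (27.8% called in all). Without control replicate 1, none of the 5 subunits passed (log2 fold changes 0.31 to 0.49, with PSMB8 at adjusted p = 0.0502), nor did ERAP2 (-0.54). PSME1 and PSME2 also missed the threshold without control replicate 2 (0.38 and 0.42), TRIM28 knockdown replicate 1 (0.35 and 0.38) or TRIM28 knockdown replicate 2 (0.40 and 0.42), and PSME1 without TRIM28 knockdown replicate 3 (0.41). PSMB9 missed it without TRIM28 knockdown replicate 1 (0.52), and ERAP2 without control replicate 2 (-0.58) or TRIM28 knockdown replicate 2 (-0.65) or 3 (-0.58). ERAP1 passed whichever library was left out.

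In PARP1 knockdown the same 5 subunits were higher and both enzymes lower, where 27.1% of all tested genes were higher and 32.2% lower (59.3% called in all). None of these 7 calls ended when any 1 of the 9 libraries was left out. Both comparisons use the same 3 control libraries. With 3 libraries against 3, an exact two-sided permutation test of a single gene cannot go below p = 0.1, the value that each of the 7 genes reached in both comparisons. Any gene whose groups do not overlap reaches it, and the share of all tested genes that do so is not given here. Scaled by library totals alone, without TMM, the median log2 fold change of all tested genes stood at -0.18 in TRIM28 knockdown and -0.39 in PARP1 knockdown, against -0.02 and -0.07 with TMM. All 7 genes kept their direction under that scaling, but PSMB9 (0.41), PSMB10 (0.35), PSME1 (0.22) and PSME2 (0.25) no longer passed in TRIM28 knockdown, nor PSME1 (0.25) in PARP1 knockdown.

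**Figure D2:**
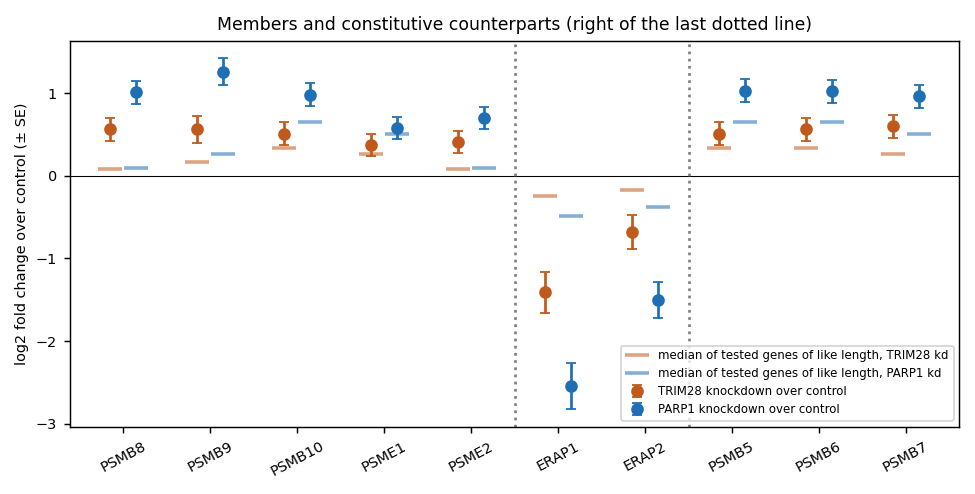
Log2 fold change over control (vertical axis) with its SE for the 7 genes and the constitutive catalytic subunits, in TRIM28 knockdown (left point of each pair) and PARP1 knockdown (right point); short bars mark the median of tested genes of similar exon length. PSMB9 reaches 1.26 in PARP1 knockdown and ERAP1 -2.54, while PSME1 at 0.58 lies close to its length median of 0.50.

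The constitutive catalytic subunits rose as well. PSMB5 had log2 fold changes of 0.51 ± 0.14 in TRIM28 knockdown (adjusted p = 0.00912) and 1.03 ± 0.14 in PARP1 knockdown (adjusted p = 1.08e-06), PSMB6 of 0.56 and 1.02, and PSMB7 of 0.60 and 0.96, all past the threshold. Their exon lengths are 1549, 1447 and 1788 bases. Of tested genes of similar length, 72.2%, 77.7% and 91.4% lay below them in TRIM28 knockdown and 75.2%, 74.9% and 81.0% in PARP1 knockdown. The transcript ratios of inducible to constitutive subunits were read as FPKM ratios within each library. These ratios are not corrected for the trend with exon length given below, and PSMB8 and PSMB9 are longer than PSMB5 and PSMB6. PSMB8 per PSMB5 averaged 0.207 ± 0.00757 in TRIM28 knockdown, 0.198 ± 0.00954 in PARP1 knockdown and 0.200 ± 0.0130 in control (SD, n = 3 each). PSMB10 per PSMB7 averaged 0.05 ± 0.00365, 0.0542 ± 0.00726 and 0.0531 ± 0.00121 in the same groups. For both pairs the group means differed by less than the largest SD within a group.

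PSMB9 per PSMB6 averaged 0.0891 ± 0.00635 in TRIM28 knockdown, 0.104 ± 0.00850 in PARP1 knockdown and 0.0884 ± 0.00742 in control. The PARP1 knockdown libraries ran from 0.0961 to 0.113, all above the TRIM28 knockdown libraries (0.0823 to 0.0949), and the lowest of them lay just below the highest control library, at 0.0963. PSME1 per PSME2 averaged 1.89 ± 0.0611 in TRIM28 knockdown, 1.80 ± 0.135 in PARP1 knockdown and 1.94 ± 0.0700 in control, with overlapping libraries. Of these ratios, ERAP2 per ERAP1 alone separated both knockdowns from control, at 2.55 to 3.85 in TRIM28 knockdown, 2.74 to 6.75 in PARP1 knockdown and 1.63 to 1.83 in control. The highest of these, in PARP1 knockdown replicate 3, has the 11 reads of ERAP1 as its denominator.

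**Figure D3:**
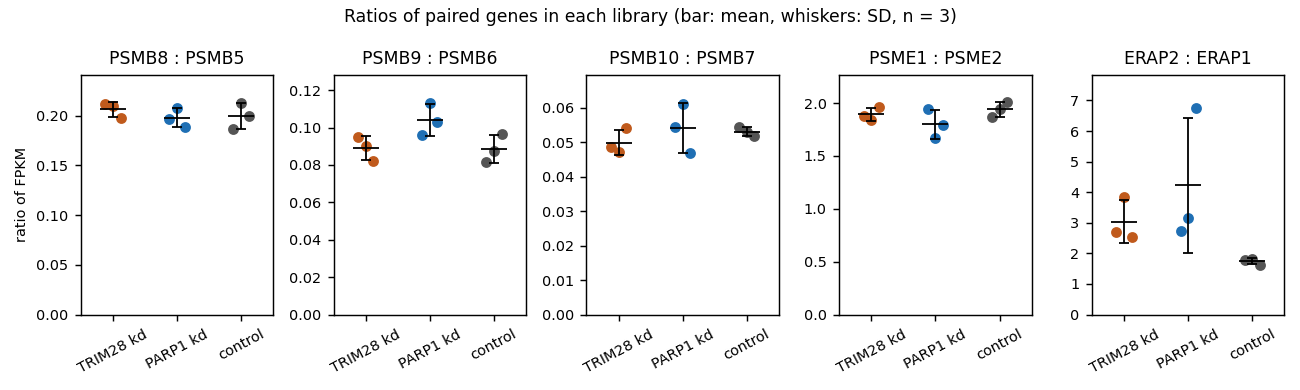
Ratio of the FPKM of paired genes within each library (vertical axis, from 0), for each inducible subunit over its constitutive counterpart, PSME1 over PSME2 and ERAP2 over ERAP1, by group; points are libraries, bars means and whiskers SD (n = 3). The 3 inducible-to-constitutive ratios and PSME1 over PSME2 of either knockdown overlap control, while ERAP2 over ERAP1 is 2.55 or more in the knockdowns and at most 1.83 in control.

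Within a library, the mean log2 CPM of the 5 subunits minus that of the 2 enzymes was 4.34, 4.75 and 4.49 in TRIM28 knockdown, 5.80, 5.65 and 6.32 in PARP1 knockdown, and 2.63, 2.85 and 3.57 in control. Gene lengths are the same in every library, so only the change of this difference between groups is read. The trend of levels with exon length, given below, differs between the groups, and this change is not corrected for it. The groups did not overlap, and the means were 4.53 ± 0.207, 5.92 ± 0.352 and 3.02 ± 0.492 (SD, n = 3 each). Both sides contributed: the subunit mean was 7.29, 7.70 and 6.81 log2 CPM, and the enzyme mean 2.77, 1.78 and 3.79. Together the 5 subunit genes took 0.0997% to 0.109% of all counts in TRIM28 knockdown, 0.106% to 0.124% in PARP1 knockdown and 0.0788% to 0.0917% in control.

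Exon length ran along with these directions. The slope of a library's log2 levels, each set against the gene's mean over the 9 libraries, per doubling of exon length was -0.0244 to -0.00085 in TRIM28 knockdown, -0.167 to -0.0968 in PARP1 knockdown and 0.0725 to 0.203 in control. In both knockdowns shorter genes were shifted up and longer genes down, and PSMB10 (1626 bases) and PSME1 (1776) belong to the first and the second of 10 equal length classes, while ERAP2 (6953) and ERAP1 (7945) belong to the seventh and the eighth. PSME1 lay near its own class, whose median log2 fold change was 0.26 in TRIM28 knockdown and 0.50 in PARP1 knockdown, with 65.1% and 55.2% of the class below it. PSMB10 lay above 72.3% and 73.0% of its class, whose medians were 0.33 and 0.65. PSMB9 (3338 bases) lay above 93.2% and 97.7% of its class, PSMB8 (3480) above 94.5% and 92.3%, and PSME2 (3582) above 85.0% and 79.6%. ERAP1 stood near the bottom of its class, with 1.18% and 0.369% of those genes below it against class medians of -0.24 and -0.49. ERAP2 had 21.8% and 9.51% of its class below it, against medians of -0.17 and -0.38.

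The genes divided once each library's trend with length and GC content was removed. In PARP1 knockdown, PSMB9 (1.33, adjusted p = 6.64e-06), PSMB8 (0.70, adjusted p = 0.000407) and PSME2 (0.59, adjusted p = 0.00105) were still called higher, and ERAP1 (-1.89, adjusted p = 7.52e-06) and ERAP2 (-0.90, adjusted p = 0.000419) still lower. PSMB10 turned to -0.15 (adjusted p = 0.369) and PSME1 to -0.11 (adjusted p = 0.387). In TRIM28 knockdown PSMB9 (0.52, adjusted p = 0.0343) and ERAP1 (-1.03, adjusted p = 0.00251) passed. PSMB8 (0.34), PSME2 (0.28) and ERAP2 (-0.35) then kept their direction without passing, and PSMB10 (-0.04) and PSME1 (-0.03) stood near 0.

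**Figure D4:**
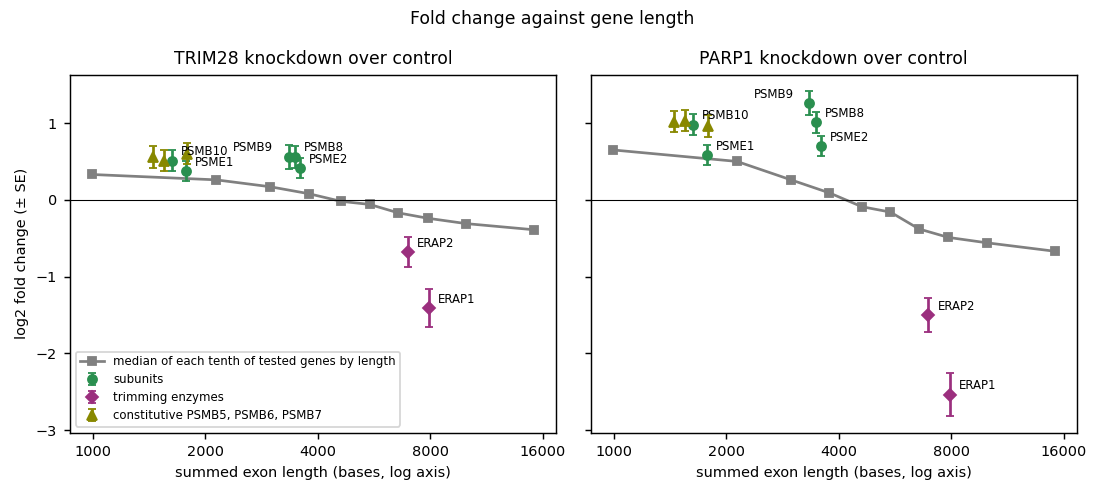
Log2 fold change with its SE (vertical axis) against summed exon length (horizontal log axis, bases) in TRIM28 knockdown (left) and PARP1 knockdown (right), for the subunits, the trimming enzymes and PSMB5, PSMB6 and PSMB7; the grey line joins the medians of 10 equal length classes of tested genes. PSMB9, PSMB8 and PSME2 lie above the grey line and ERAP1 well below it, while PSME1 lies close to it.

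TRIM28 knockdown set directly against PARP1 knockdown had 3 of the 5 subunits lower and both enzymes higher, where 11.9% of all tested genes were lower and 13.2% higher (25.1% called in all). PSMB9 was lower, with a log2 fold change of -0.70 ± 0.16 (adjusted p = 0.00347), as were PSMB8 (-0.45 ± 0.14, adjusted p = 0.0213) and PSMB10 (-0.47 ± 0.14, adjusted p = 0.0171). ERAP1 was higher by 1.13 ± 0.30 (adjusted p = 0.00733) and ERAP2 by 0.81 ± 0.22 (adjusted p = 0.00953). PSME1 (-0.21 ± 0.13, adjusted p = 0.258) and PSME2 (-0.29 ± 0.13, adjusted p = 0.119) did not pass, and the libraries of PSME2 overlapped. PSMB9 passed whichever library was left out. PSMB8 and PSMB10 did not pass without TRIM28 knockdown replicate 1 (both -0.47), TRIM28 knockdown replicate 3 (-0.43 and -0.47) or PARP1 knockdown replicate 2 (-0.40 and -0.34). PSMB8 also missed the threshold without TRIM28 knockdown replicate 2 (-0.48) or PARP1 knockdown replicate 3 (-0.35), ERAP1 (0.97) and ERAP2 (0.72) without TRIM28 knockdown replicate 1, and PSME2 passed without PARP1 knockdown replicate 1 (-0.40). Scaled by library totals alone, PSMB8 (-0.27) and PSMB10 (-0.30) did not pass, and without the trends in length and GC content PSMB10 (0.10) and PSME1 (0.08) turned sign.

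The rest of the core particle moved in part. Of 16 other genes for 20S core subunits and assembly factors, 8 were higher and 1 lower in TRIM28 knockdown, and 9 higher and 1 lower in PARP1 knockdown, with median log2 fold changes of 0.31 and 0.47 against -0.02 and -0.07 over all tested genes. Among all tested genes, 10.3% were higher and 17.5% lower in TRIM28 knockdown, and 27.1% and 32.2% in PARP1 knockdown. PSMB3, a structural β subunit, was higher in both (0.60 and 1.15 ± 0.15, adjusted p = 4.42e-07 in PARP1 knockdown), and PSMA4, an α subunit, was lower in PARP1 knockdown (-0.34, adjusted p = 0.029) with 0.05 (adjusted p = 0.817) in TRIM28 knockdown. None of the other 3 activator or inhibitor genes passed in TRIM28 knockdown, and 1 was lower in PARP1 knockdown. That gene was PSME4, which encodes the activator PA200 (-0.86 ± 0.24, adjusted p = 0.00371).

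The other peptidases of the pathway divided. Of 8 such genes, 2 were higher and 2 lower in TRIM28 knockdown, and 2 higher and 6 lower in PARP1 knockdown, with medians of -0.38 and -0.79. The shares over all tested genes were 10.3% higher and 17.5% lower in TRIM28 knockdown, and 27.1% and 32.2% in PARP1 knockdown. NPEPPS, the puromycin-sensitive aminopeptidase of the cytosol, fell (-0.88, adjusted p = 0.000398, and -1.92 ± 0.17, adjusted p = 2.72e-09), while THOP1, a cytosolic endopeptidase that destroys peptides, rose (0.41, adjusted p = 0.0318, and 1.05, adjusted p = 9.59e-07). Of 11 genes for peptide transport and class I loading, 4 were higher and 2 lower in TRIM28 knockdown, and 6 higher and 2 lower in PARP1 knockdown, with medians of 0.31 and 0.50. TAP1, a subunit of the peptide transporter, rose (0.47 ± 0.13, adjusted p = 0.00806, and 0.81 ± 0.13, adjusted p = 6.75e-06), and CANX, the chaperone calnexin, fell (-1.33 and -2.01).

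Of 8 transcription factors tied to these genes, 1 was higher and 2 were lower in TRIM28 knockdown, and 3 were higher and 3 lower in PARP1 knockdown, with medians of 0.01 and -0.03. For all tested genes the shares were 10.3% higher and 17.5% lower in TRIM28 knockdown, and 27.1% and 32.2% in PARP1 knockdown. NLRC5, the activator of MHC class I genes, was higher in PARP1 knockdown (0.68 ± 0.16, adjusted p = 0.000937) and had 0.25 (adjusted p = 0.272) in TRIM28 knockdown.

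Several of the 7 genes share sequence with a neighbour, and the sources used here do not give the strand setting of the counting, although the library kit is directional. The intervals of PSMB8 and PSMB9 overlap on opposite strands, with 139 exon bases in common in the GENCODE v29 annotation, 4.64% of the PSMB8 exon bases. That annotation is not the one behind the deposited lengths, with 2997 exon bases for PSMB8 against 3480 and 1853 for PSMB10 against 1626. The shares given here may thus differ from those in the counting. The antisense gene PSMB8-AS1 covers 20.6% of the PSMB8 exon bases, but held 602 reads over the 9 libraries against 28141 for PSMB8, and its log2 fold changes of 0.27 (adjusted p = 0.443) and 0.51 (adjusted p = 0.086) did not pass. TAP1 lies within the listed interval of PSMB9 without a shared exon base. PSMB10 shares 34.8% of its exon bases with a gene of no symbol (ENSG00000261884) on the same strand, which held 181 reads in all. RNF31 (534 reads) shares 6.03% of the PSME2 exon bases, and MIR7703, at 0 reads, lies within PSME2. ENSG00000259529, a gene of no symbol on the opposite strand, overlaps the PSME2 interval by 23 bases without a shared exon base. It held 100 reads in all and was higher in PARP1 knockdown (1.5, adjusted p = 0.0195), with 0.86 (adjusted p = 0.261) in TRIM28 knockdown. EMC9 shares 9 bases with PSME1 and rose in PARP1 knockdown (1.16, adjusted p = 7.98e-07), with 0.28 (adjusted p = 0.182) in TRIM28 knockdown. Of the processed copies of PSME2, PSME2P1 held 202 reads and PSME2P2 52, against 49776 for PSME2.

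On chromosome 5, ERAP1 overlaps CAST, the calpain inhibitor, on the opposite strand, with 3.76% of its exon bases shared. CAST was lower too (-0.77 ± 0.16, adjusted p = 0.00129, and -1.27, adjusted p = 8.07e-07), as was ELL2, the nearest tested gene at lower coordinates, 798959 bases away (-0.93, adjusted p = 0.00273, and -1.11, adjusted p = 0.000135). LNPEP, an aminopeptidase gene and the nearest tested gene on the far side of ERAP2, 15691 bases away, was lower in PARP1 knockdown (-0.79, adjusted p = 0.0445) and had -0.48 (adjusted p = 0.266) in TRIM28 knockdown. Among the nearest tested genes beside the subunit genes, PSKH1, 4830 bases from PSMB10, was higher in both knockdowns (0.49, adjusted p = 0.0162, and 1.10, adjusted p = 7.95e-07), and LCAT, 2886 bases away on its other side, in PARP1 knockdown (1.11, adjusted p = 0.00191) with 0.55 (adjusted p = 0.16) in TRIM28 knockdown. IRF9, which lies 13664 bases beyond PSME2 and encodes the DNA-binding part of the interferon-stimulated complex, was higher in PARP1 knockdown (0.96, adjusted p = 0.00219), with 0.32 (adjusted p = 0.374) in TRIM28 knockdown. DCAF11, 10921 bases before PSME1, was likewise higher in PARP1 knockdown (0.42, adjusted p = 0.00546), with 0.26 (adjusted p = 0.122) in TRIM28 knockdown. Neighbours without a symbol did not rise. ENSG00000289047, 34448 bases beyond PSMB9, was lower in PARP1 knockdown (-1.3, adjusted p = 0.00516), with -0.15 (adjusted p = 0.771) in TRIM28 knockdown. ENSG00000250264, 1895 bases from PSMB8, had 0.26 (adjusted p = 0.757) in TRIM28 knockdown and 0.2 (adjusted p = 0.772) in PARP1 knockdown.

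Across the 9 libraries, which share the 3 groups and their length trends, log2 CPM of any 2 subunits went together with Pearson r of 0.96 to 0.99. ERAP1 and ERAP2 had r = 0.91 with each other, and the subunits had r of -0.93 to -0.88 with ERAP1 and -0.83 to -0.77 with ERAP2. Among 8457 genes with a mean FPKM of at least 1, those closest to the mean profile of PSMB8, PSMB9 and PSMB10 were ARL16, PPP1R14BP3, AP2S1, LSM7 and SERF2, with r of 0.995 to 0.996. Closest to ERAP1 were EIF2S3, CAP2, FIP1L1, DNAJA1 and PRPF3 (0.992 to 0.996), and closest to ERAP2 were EIF2A, NUCKS1, DEK, SLC16A1 and ATL2 (0.984 to 0.992). The subunit profile was a common one, with 1169 genes (13.8%) above r = 0.95. For ERAP1 there were 589 (6.96%) and for ERAP2 118 (1.40%). The subunit profile is a mean of 3 genes and the others are single genes with fewer reads, so the shares are not like for like.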

How the data were processed

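For each gene the authors deposited a count of reads, unscaled, beside an FPKM value, which divides the count by summed exon length and library total, per the file headers. The submitters' processing notes list STAR 2.7.9a and, for counting, featureCounts 2.0.1, after Trim Galore 0.6.6 and FastQC 0.11.9, on GRCh38. The sources used here give neither the annotation release nor the strand setting. From the counts, edgeR 4.0.16 in R 4.3.3 tested all 13562 genes passing its low-count filter, with TMM factors, 3 groups and 9 libraries in 1 fit (6 residual degrees of freedom, biological coefficient of variation 0.149), two-sided, adjusted after Benjamini-Hochberg. Log2 CPM used a prior count of 2.

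The genes and lists were chosen with earlier results of these data known. Named were the 7 genes, PSMB5 to PSMB7, both targets, per list the gene of smallest adjusted p in each direction, overlapping genes and the nearest tested genes, and the 5 most alike in profile. PSME2 copies were added later. Some genes of the lists are not reported here. Sequences came from RefSeq, and shared exon bases and GC (13390 tested genes, 98.7%) from GENCODE v29. Alternatives were DESeq2 1.42.0, its size factors, library totals, other filters, limma 3.58.1 on log2(FPKM + 1) and log2(FPKM + 0.1), which understates changes of low genes, the 2 compared groups alone, a replicate block, lowess trends (span 0.3) and leaving out each library. The tests were checked on simulated counts, and replicate libraries differed by more than sampling noise. Figures used Python 3.11.15 and matplotlib 3.10.9.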

Additional observations from a re-analysis of the deposited data

How the results depend on the processing

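In PARP1 knockdown against control, 2 enzymes were lower under every setting run, and 4 or 5 subunits were higher except with length and GC trends removed, where 3 were. In TRIM28 knockdown against control the count of higher subunits was 1 with library totals, 2 with limma at either pseudocount, 2 without the length trend and 1 without length and GC trends, and 1 enzyme was lower in place of 2 under either trend removal. Without a low-count filter PSME1 (0.35, adjusted p = 0.0648) did not pass there. Leaving out 1 library gave 0 to 5 higher subunits and 1 to 2 lower enzymes, with 1537 to 4935 of all tested genes called against 3768, and limma with a pseudocount of 0.1 called 2353. In TRIM28 knockdown against PARP1 knockdown, 1 subunit was lower with library totals, with limma at either pseudocount and with both trends removed, and 1 enzyme was higher with limma on log2(FPKM + 1). Leaving out 1 library gave 1 to 4 lower subunits, 0 to 2 higher enzymes and 1654 to 4714 genes called against 3407, and removing both trends gave 1997. Directions turned for PSMB10 and PSME1 with both trends removed, to -0.04 and -0.03 in TRIM28 knockdown, -0.15 and -0.11 in PARP1 knockdown, and 0.10 and 0.08 between the knockdowns. They turned for PSME1 with the length trend removed, to -0.00018 in PARP1 knockdown and 0.07 between the knockdowns. The cause of these changes was not tested. On log2(FPKM + 1), subunits minus enzymes was above control by 0.97 (TRIM28 knockdown) and 1.63 (PARP1 knockdown), against 1.51 and 2.90 in log2 CPM, and ERAP1 had -0.76 and -1.09, since a pseudocount shrinks low levels.

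Of the calls that rose or fell, 37.0% were higher in TRIM28 knockdown, 45.8% in PARP1 knockdown and 52.7% between the knockdowns, against 13.7%, 25.9% and 78.6% with library totals and 21.2%, 31.7% and 74.4% with limma on log2(FPKM + 0.1). Same-numbered libraries deviated together with r of -0.081 to 0.141, and libraries of unlike number with r of -0.164 to 0.118. No pairing by number was evident, though with 3 libraries per group this cannot exclude a shared preparation. The replicate block gave 5 higher subunits and 2 lower enzymes in both knockdowns and 4085, 8071 and 3662 genes called in the 3 comparisons. With the replicate block and the length trend removed, TRIM28 knockdown had 2 higher subunits and 1 lower enzyme, and PSME1 stood at -2.8e-05 in PARP1 knockdown and 0.07 between the knockdowns. Depth limits ERAP1 most, at 11 to 32 reads per PARP1 knockdown library.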
